A study of Mus musculus with 2 samples.

Results

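The genes of the endothelin system were followed through single cells of mouse bone: the ligands Edn1 and Edn3, the converting enzyme Ece1, and the receptors Ednra and Ednrb. They were taken by name, with earlier results of these data known, and are 5 of the 28380 genes listed over both libraries. The cells came from femur and tibia of C57BL/6 mice of both sexes at postnatal day 30 and were depleted of blood cells. Control mice carried the inducible Dach1 allele without Cre (Dach1OE +/f). Dach1OE mice carried the same allele with Apj CreERT2, a tamoxifen-inducible Cre driven from the gene of the apelin receptor, so that recombination depended on where that receptor gene had been active. Both groups received tamoxifen. Per the study's methods each library pooled cells of 2 mice, the controls were Cre-negative littermates and an R26-mT/mG reporter was part of the breeding. With 1 library per group there is no replicate and no test, and every interval below covers counting error only. Comparing cells of either sex between the libraries sets 1 mouse against 1 mouse. Sex therefore cannot be told apart from the individual mouse, and the sexes are not replicates.

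Endothelins are short vasoactive peptides. A precursor is first cut by furin-like proteases and then by the membrane-bound endothelin converting enzyme, encoded by Ece1, and the peptide acts over short distances on receptors that couple to G proteins. The type A receptor, encoded by Ednra, drives contraction of vascular smooth muscle, while the type B receptor, encoded by Ednrb, is present on endothelium, where it promotes nitric oxide release and clears the peptide. Endothelin 3, made by Edn3, binds mainly the type B receptor and is best known for its part in neural crest development. In bone, endothelin 1 is known to act on osteoblasts.

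After the filters 26466 Control and 29317 Dach1OE cells remained, with median depths of 3794 and 4055 unique molecular identifiers (UMIs, counted molecules) per cell. Marker genes, none of them an endothelin gene, placed 82.7% of Control and 80.6% of Dach1OE cells in a class. Endothelial cells (ECs) numbered 8188 and 8184, and within them were set apart cells like those of sinusoids (bmEC-like, type L), of the metaphysis (mpEC-like, type H), of arteries (aEC-like) and of the post-arterial capillaries called type R (rEC-like). Most markers kept out of the gates were higher in their classes, such as Kdr at 15.9-fold and 16.2-fold in ECs and Fbln2 at 14.1-fold and 16.1-fold in aEC-like cells. Aplnr, the apelin receptor gene, was at 0.678-fold and 0.947-fold of the other ECs in rEC-like cells. Some unused markers were less distinct in Dach1OE, such as Fabp5 in rEC-like cells at 12.7-fold over other ECs in Control and 3.87-fold in Dach1OE, Cd34 in mpEC-like cells at 4.69-fold and 2.33-fold and Efnb2 in aEC-like cells at 11.3-fold and 6.22-fold. Dach1 itself was at 4.50 CPM (UMIs of a gene per 1000000 UMIs of its class) in Control ECs and 201.6 CPM in Dach1OE ECs, where 38.8% of the cells had a Dach1 UMI. The aEC-like share of ECs was 2.85% in Control and 10.2% in Dach1OE, the bmEC-like share 69.1% and 45.8%, and the share of ECs that no subtype gate took 12.4% and 24.3%. Of the deposited cell numbers, 1049 were found in both libraries.

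Edn1, on chromosome 13 (GRCm38, 42301476 to 42307990, plus strand), belonged to the arterial end of the vascular tree. In Control it stood at 247.1 CPM (95% Poisson interval 216.0 to 281.5, 227 UMIs) in rEC-like cells and at 206.6 CPM (176.5 to 240.3, 168 UMIs) in aEC-like cells. The other gated EC classes lay far below, with 13.2 CPM in mpEC-like, 12.2 CPM in cycling and 2.42 CPM in bmEC-like cells. The first 2 classes could not be told apart in Control, their log2 ratio being 0.26 (−0.04 to 0.56), and both were above the other classes in the plot of levels. Against the other ECs of Control, Edn1 was 19.9-fold higher in rEC-like and 14.3-fold higher in aEC-like cells, differences past 2-fold upwards that 5.78% and 6.12% of all genes tested also made. Against bmEC-like cells it was 102.0-fold and 85.2-fold higher, as 6.99% and 7.52% of genes were past 2-fold.

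In Dach1OE the order changed, with aEC-like cells first at 194.9 CPM (179.4 to 211.3, 588 UMIs) and rEC-like cells at 102.9 CPM (87.2 to 120.5, 153 UMIs). Here the aEC-like level was above the rEC-like level by 0.92 on the log2 scale (0.66 to 1.19). The rEC-like level was 2.97-fold that of the other ECs and the aEC-like level 10.2-fold, where 2.89% and 6.13% of all genes were past 2-fold higher. Edn1 UMIs lay mostly in ECs in both libraries, 67.8% of 838 in Control and 67.7% of 1562 in Dach1OE, and another 21.6% and 21.7% lay in cells that no gate took. Mural cells held only 3 Edn1 UMIs in each library.

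Shares of cells with an Edn1 UMI did not separate the rEC-like and aEC-like classes beyond their intervals in Control and did so in Dach1OE. The share was 28.4% (exact binomial interval 23.8 to 33.3) of 363 Control and 15.6% (12.6 to 19.1) of 506 Dach1OE rEC-like cells, and 33.9% (27.9 to 40.4) of 233 and 37.0% (33.7 to 40.4) of 835 aEC-like cells. With every cell thinned to 1000 UMIs the shares were 15.97% and 7.56% in rEC-like and 15.7% and 16.5% in aEC-like cells. Haematopoietic cells were taken as a guide to free RNA, though whether they make RNA of these 5 genes themselves was not tested. They had an Edn1 UMI in 0.321% of Control and 0.659% of Dach1OE cells at median depths of 5129 and 5130 UMIs, against median depths of 2112 and 2608 UMIs in rEC-like cells. The bmEC-like shares of 0.725% and 1.26%, at median depths of 2997 and 2896 UMIs, were above these but of the same order.

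**Figure D1:**
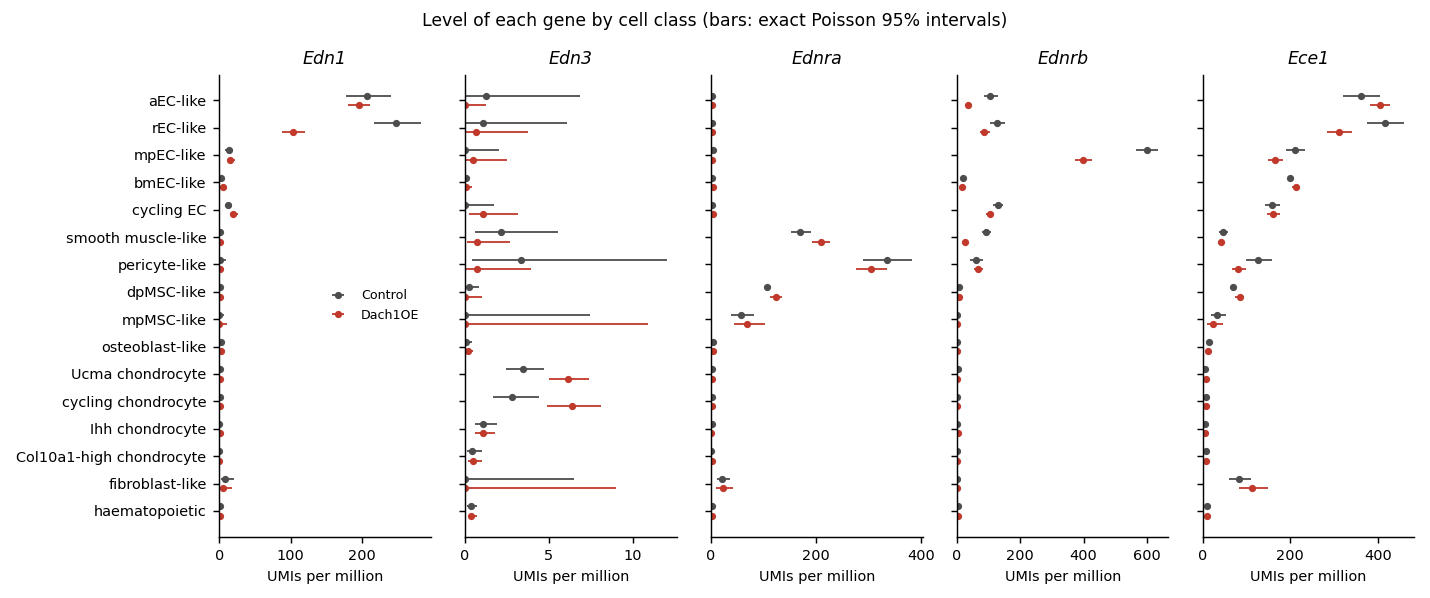
Level of each gene (CPM, horizontal axis, linear, with its own range per panel) in 16 cell classes of the Control (grey) and Dach1OE (red) libraries, with exact Poisson 95% intervals. Edn1 is high in aEC-like and rEC-like cells, Ednrb in mpEC-like cells, Ednra in pericyte-like, smooth muscle-like and dpMSC-like cells and Ece1 across ECs, while Edn3 stays below 10 CPM in every class shown.

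Edn1 fell in rEC-like cells of Dach1OE, from 247.1 to 102.9 CPM. The log2 ratio was −1.26 (−1.57 to −0.96), and 3.1% of genes tested in this class were past 2-fold lower. In aEC-like cells (log2 ratio −0.08, −0.33 to 0.17) and mpEC-like cells (0.25, −0.54 to 1.07) the intervals spanned 0. The rEC-like fall was seen in cells with Xist UMIs, from 246.8 to 89.2 CPM, and in cells with Y-linked UMIs, from 227.0 to 66.2 CPM (log2 ratio −1.78). These sexed cells held 78 and 42 of the 227 Edn1 UMIs of Control and 44 and 24 of the 153 of Dach1OE. The other UMIs lay in rEC-like cells whose sex could not be told. The size of the fall depended on how the rEC-like cells were chosen, and it ended as a 2-fold difference under 3 other choices. The log2 ratio was −0.88 when cells were assigned by likelihood over all other genes, −0.52 (−0.75 to −0.29) in ECs with Emcn and Cav1 UMIs and no Flt4 UMI, and −0.64 (−0.98 to −0.30) in the 238 Control and 180 Dach1OE rEC-like cells with a UMI of C1qtnf9 or Fmo2.

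The rEC-like cells of the 2 libraries also differed in the genes that gated them. C1qtnf9 was at 338.6 CPM in Control and 170.8 CPM in Dach1OE, and Fmo2 at 357.1 and 90.8 CPM. Fabp5, which the gate did not use, was at 898.2 and 469.3 CPM, and the arterial gap junction gene Gja4 at 50.1 and 319.3 CPM. The 5 smooth muscle markers summed to 942.9 and 610.4 CPM in these cells, with 2 of the 5 at 0 in Control, against 97.5 and 107.6 CPM over all ECs. All of these differed between the libraries in the same cells as Edn1, and their part in its fall was not tested.

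Edn1 rose in bmEC-like cells, from 2.42 CPM (49 UMIs) to 5.32 CPM (68 UMIs), a log2 ratio of 1.13 (0.58 to 1.69) where 1.92% of genes were past 2-fold higher. Xist cells went from 2.53 to 5.84 CPM and Y-linked cells from 2.35 to 5.80 CPM. The bmEC-like cells of the libraries differed in other genes too, with the sinusoidal genes Tfpi at 3174 and 1693 CPM and Gpm6a at 842.1 and 201.2 CPM and the arterial gene Gja4 at 2.32 and 14.2 CPM. ECs with at least 2 Scgb3a1 UMIs, 0.391% of ECs in Control and 23.4% in Dach1OE, had Edn1 at 7.33 CPM in Dach1OE. The part of these differences in the rise was not tested. In chondrocytes, a cell type with little Edn1, it rose from 0.596 CPM (25 UMIs) to 1.59 CPM (90 UMIs), a log2 ratio of 1.42 (0.77 to 2.12), against 0.504% of genes past 2-fold higher. That rise was 0.44 under a stricter gate and so no longer past 2-fold, and in Y-linked cells its interval of −0.19 to 3.04 spanned 0. Chondrocytes that no subclass took, 517 in Control and 687 in Dach1OE, held 9 and 33 of these UMIs at 4.44 and 13.4 CPM, and Ihh chondrocytes held 3 and 24 at 0.253 CPM (0.0522 to 0.739) and 1.84 CPM (1.18 to 2.74). The haematopoietic level, a guide to free RNA, stood at 0.698 and 1.18 CPM, so that the chondrocyte level of Control was not above it. The 8 EC gate markers summed to 117.5 CPM in Control and 147.2 CPM in Dach1OE chondrocytes, 1.68% and 1.93% of their level in ECs, with none of the 8 at 0. The part of EC RNA in the bmEC-like and chondrocyte rises was not tested.

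Over all ECs together Edn1 was at 19.98 CPM (568 UMIs) in Control and at 38.27 CPM (1057 UMIs) in Dach1OE. The log2 ratio of 0.94 (0.79 to 1.09) stopped short of 2-fold, a limit that 5.4% of genes passed in either direction. It was 1.33 in Y-linked cells, 0.93 in Xist cells and 1.23 where cells needed under 10% mitochondrial UMIs, so that the call of a 2-fold difference turned on that choice. Of the gated subtypes, bmEC-like and cycling ECs (12.2 to 19.9 CPM, log2 ratio 0.71, 0.01 to 1.44) moved up and rEC-like cells down. The few tip-like ECs held 0 Edn1 UMIs in 18 Control cells, which allows up to 41.5 CPM, and 16 UMIs in 48 Dach1OE cells, at 84.1 CPM (48.1 to 136.6). With the Control levels of each subtype weighted by the Dach1OE subtype mix the EC level was 45.15 CPM, and with the Dach1OE levels weighted by the Control mix it was 17.68 CPM. With the Control mix in both libraries the log2 ratio was −0.18, and with an equal weight for each subtype it was −0.51, both below 0. The sign of the ratio over all ECs thus differed by whether the subtype shares were held. aEC-like cells held 29.6% of the Edn1 UMIs of Control ECs and 55.6% of those of Dach1OE ECs, and rEC-like cells 40.0% and 14.5%.

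**Figure D2:**
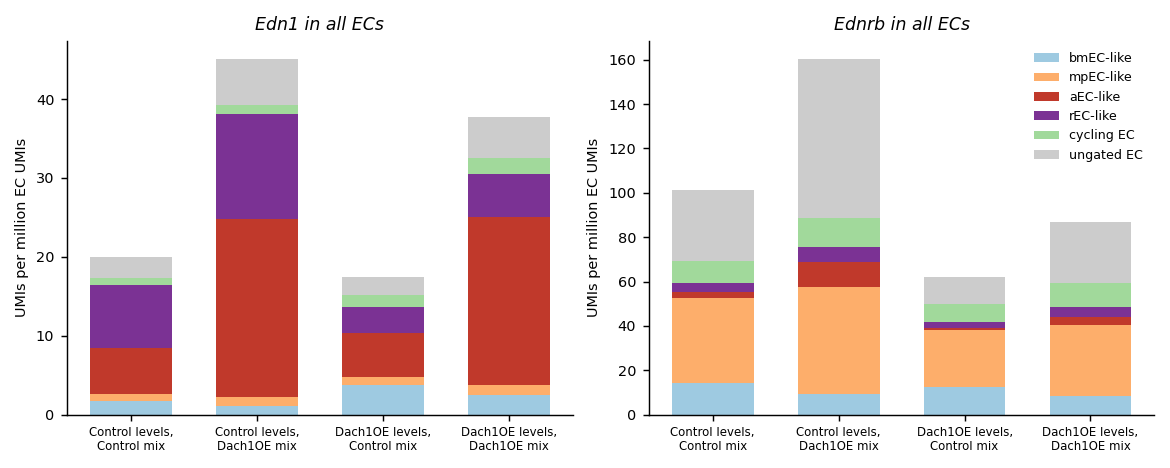
Edn1 (left) and Ednrb (right) over all ECs (CPM, axis from 0), stacked by the contribution of each EC subtype, for the levels and the subtype mix of each library and for the exchanged pairs, with tip-like and lymphatic EC-like cells (under 1% of EC UMIs each) left out. Edn1 is at 45.15 CPM with Control levels and the Dach1OE mix and 17.68 CPM with the reverse, and Ednrb is at 162.7 and 62.55 CPM in the same exchanges.

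Within Dach1OE, ECs could be split by whether a Dach1 UMI was seen. By genotype all these cells carry the allele, and a cell without a Dach1 UMI may still have recombined it. Nor does a Dach1 UMI by itself show recombination, since 1.44% of Control ECs and 4.58% of Dach1OE chondrocytes also had one. In rEC-like cells Edn1 was at 55.3 CPM in the 205 cells with a Dach1 UMI and at 141.7 CPM in the 301 cells without, a log2 ratio of −1.36 (−1.93 to −0.81). In aEC-like cells the levels were 191.5 and 198.8 CPM and could not be told apart. The cells with a Dach1 UMI were deeper, with median UMI counts of 2833 against 2427 in rEC-like and 3751 against 2605 in aEC-like cells. The part of depth in the split was not tested.

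Edn3, on chromosome 2 (174760619 to 174784042, plus strand), was the scarcest of the 5 genes, with 179 UMIs in Control and 301 in Dach1OE. Chondrocytes held 83 of them in Control (46.4%) and 206 in Dach1OE (68.4%). In Ucma chondrocytes, marked by a gene of the resting and upper growth plate, the level was 3.45 CPM (40 UMIs) in Control and 6.12 CPM (107 UMIs) in Dach1OE. Cycling chondrocytes, at 2.78 CPM (18 UMIs) and 6.35 CPM (65 UMIs), could not be told from these in Dach1OE (log2 ratio 0.05, −0.41 to 0.51). Towards the end of chondrocyte maturation Edn3 was lower, at 1.10 and 1.08 CPM in chondrocytes with Ihh, the signal of prehypertrophic cells, and at 0.401 and 0.451 CPM in chondrocytes rich in Col10a1, the collagen of hypertrophic cells. The Ucma level was 5.69-fold the Ihh level in Dach1OE and 3.15-fold in Control, where 4.48% and 4.39% of genes were past 2-fold higher. The haematopoietic level was 0.349 and 0.350 CPM, so that Edn3 in Col10a1-rich cells was about at this level. The UMI limits that split the chondrocytes were set after the data were seen.

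Edn3 was higher in Dach1OE chondrocytes, at 3.65 CPM against 1.98 CPM, with a log2 ratio of 0.88 (0.51 to 1.27) that stayed short of 2-fold. In cycling chondrocytes the log2 ratio was 1.19 (0.42 to 2.03) and past 2-fold, as were 0.473% of genes in the upward direction. In Ihh and Col10a1-rich chondrocytes the values of both libraries were nearly the same, as given above. The shares of Ucma chondrocytes with an Edn3 UMI were 2.66% (1.86 to 3.68) and 4.53% (3.67 to 5.52), against 0.193% and 0.201% of haematopoietic cells.

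Mural cells held 9 Edn3 UMIs in Control, at 3.35 CPM (1.53 to 6.35), and 3 UMIs in Dach1OE, at 0.677 CPM (0.140 to 1.98), under the 50 UMIs asked of a call. Another 69 Control and 74 Dach1OE Edn3 UMIs lay in cells that no gate took, which may include chondrocytes. A set of cells with UMIs of the muscle progenitor genes Pax7 and Myf5, looked for after these values were seen, numbered 27 in Control and 20 in Dach1OE and held 18 and 19 Edn3 UMIs. Their level was 195.1 CPM (115.7 to 308.4) and 288.3 CPM (173.6 to 450.2), 169.5-fold and 166.4-fold that of all other cells, where 5.75% and 4.26% of genes were past 2-fold higher. In the gated classes with over 10 Edn3 UMIs the level did not exceed 6.35 CPM. ECs had 7 Edn3 UMIs in each library, 0.246 and 0.253 CPM, which is not above the haematopoietic level.

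Ece1, on chromosome 4 (137862237 to 137965229, plus strand), was the most widely distributed of the 5 genes and was led by ECs. Over all ECs it stood at 217.1 CPM (211.7 to 222.5) in Control and 235.9 CPM (230.2 to 241.7) in Dach1OE, and 47.5% and 48.5% of ECs had a UMI against 5.29% and 5.24% of haematopoietic cells. The levels followed Edn1 in part, with 417.0 CPM in rEC-like and 361.5 CPM in aEC-like cells of Control, then 211.7 CPM in mpEC-like and between 193.8 and 206.2 CPM, the interval of its 4043 UMIs, in bmEC-like cells. In Dach1OE they were 310.6, 405.7, 165.8 and 212.3 CPM in the same order. The 41 Control and 16 Dach1OE lymphatic EC-like cells had the highest levels of Ece1, 844.7 and 822.9 CPM. No gated class passed 2-fold between the libraries. In rEC-like cells the log2 ratio was −0.42 (−0.62 to −0.23), which shrank to −0.05 with classes by likelihood, and in mpEC-like cells it was −0.35 (−0.56 to −0.14).

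Among the cells around vessels, Ece1 was at 126.4 and 81.5 CPM in pericyte-like, 46.6 and 42.2 CPM in smooth muscle-like and 69.3 and 83.9 CPM in dpMSC-like cells, the Adipoq and Lepr stroma of the diaphysis. Osteoblast-like cells were lower at 14.5 and 12.2 CPM, so that the dpMSC-like level was 4.78-fold theirs in Control and 6.86-fold in Dach1OE. In that pair of classes, however, 42.5% and 42.8% of all genes were past 2-fold higher in dpMSC-like cells, and the median log2 ratio was 0.87 in both libraries. Chondrocytes, at 7.51 and 9.56 CPM, were about at the haematopoietic level of 9.33 and 9.63 CPM.

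Ednra, on chromosome 8 (77663031 to 77724464, minus strand), was a receptor of mural and stromal cells. It stood at 334.4 CPM (289.8 to 383.9, 201 UMIs) in Control and 304.6 CPM (276.5 to 334.8, 430 UMIs) in Dach1OE pericyte-like cells. Smooth muscle-like cells followed at 170.2 and 209.1 CPM, dpMSC-like cells at 107.1 and 123.0 CPM, mpMSC-like cells, stroma of the metaphysis, at 56.3 and 68.0 CPM, and fibroblast-like cells at 21.2 and 22.0 CPM. Each step in this order was larger than counting error in both libraries. Osteoblast-like cells had little Ednra, 3.68 CPM (49 UMIs) in Control and 59 UMIs (2.44 to 4.13 CPM) in Dach1OE, against 1.45 and 2.58 CPM in haematopoietic cells. The dpMSC-like level was 29.1-fold and 38.4-fold that of osteoblast-like cells, in the pair of classes with 42.5% and 42.8% of genes past 2-fold higher. The median log2 ratio of all genes in this pair was 0.87 in both libraries.

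ECs, at 2.36 and 3.08 CPM, were 90.9-fold and 79.1-fold below mural cells in Ednra, where 13.2% and 12.5% of genes were past 2-fold lower in ECs. A UMI of Ednra was found in 53.8% (46.8 to 60.8) of 208 Control and 54.0% (49.5 to 58.4) of 506 Dach1OE pericyte-like cells, against 0.834% and 1.32% of haematopoietic cells. Thinned to 1000 UMIs per cell these became 28.0% and 26.8% in pericyte-like cells.

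Neither pericyte-like, smooth muscle-like nor dpMSC-like cells passed 2-fold in Ednra between the libraries, a limit that 1.26%, 1.79% and 1.23% of genes passed in these classes. The log2 ratio was −0.13 (−0.38 to 0.11) in pericyte-like, 0.30 (0.10 to 0.50) in smooth muscle-like and 0.20 (0.03 to 0.37) in dpMSC-like cells. Pericyte-like cells with Xist UMIs went from 413.4 to 279.4 CPM (−0.57, −0.97 to −0.16). Those with Y-linked UMIs, with 37 and 116 Ednra UMIs, were at 290.6 and 336.5 CPM (0.21, −0.33 to 0.79). The difference between the Xist and Y-linked cells, which is also one between mice, was not tested. Over bone mesenchymal stromal cells (BMSCs) as a whole, Ednra was at 43.6 CPM in Control and 23.6 CPM in Dach1OE, a log2 ratio of −0.88 (−1.04 to −0.73) where 4.86% of genes were past 2-fold lower. The median of all genes in that comparison was −0.25, and the dpMSC-like share of BMSCs was 54.4% in Control and 28.6% in Dach1OE while the osteoblast-like share was 37.3% and 64.6%. Within dpMSC-like cells (0.20) and osteoblast-like cells (−0.20, −0.77 to 0.38) Ednra did not fall past counting error, and the part of the shares in the fall over BMSCs was not tested.

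Ednrb, on chromosome 14 (103814625 to 103844402, minus strand), was highest among the gated EC classes in mpEC-like cells, the metaphyseal capillary cells. It stood there at 599.8 CPM (564.7 to 636.5, 1088 UMIs) in Control and 399.5 CPM (373.7 to 426.7, 887 UMIs) in Dach1OE. This was 8.76-fold the other ECs in Control and 6.64-fold in Dach1OE, past 2-fold as were 3.31% and 1.78% of genes, and 30.2-fold and 22.7-fold the bmEC-like level, where 5.11% and 4.27% were. In bmEC-like cells the levels were 19.8 and 17.6 CPM. Cycling, rEC-like and aEC-like cells of Control lay between, at 129.1, 126.3 and 105.8 CPM, and could not be told apart.

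An Ednrb UMI was found in 57.9% (53.4 to 62.4) of 480 Control and 47.5% (43.1 to 52.0) of 507 Dach1OE mpEC-like cells, against 0.898% and 1.06% of haematopoietic cells. At 1000 UMIs per cell the mpEC-like shares were 34.2% and 25.2%. ECs held 76.0% of all Ednrb UMIs in Control and 71.4% in Dach1OE.

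Ednrb fell in aEC-like cells of Dach1OE, from 105.8 CPM (84.6 to 130.6, 86 UMIs) to 34.5 CPM (28.2 to 41.8, 104 UMIs). The log2 ratio was −1.62 (−2.04 to −1.19), and 2.71% of genes were past 2-fold lower there. Xist cells fell from 104.9 to 26.5 CPM and Y-linked cells from 89.9 to 43.2 CPM. The aEC-like cells of the libraries also differed in Emcn, a capillary gene, at 233.7 and 142.5 CPM, and in the arterial genes Efnb2, at 603.8 and 376.2 CPM, and Gja4, at 1114 and 1715 CPM, whose part in the fall was not tested. Ednrb also fell in the ECs that no subtype gate took, from 388.1 to 150.1 CPM, with a log2 ratio of −1.37 (−1.51 to −1.23) where 1.96% of genes were past 2-fold lower. These leftover cells numbered 1018 in Control and 1991 in Dach1OE, and a difference in their make-up cannot be told apart from a change of Ednrb within them.

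In mpEC-like cells the log2 ratio of Ednrb was −0.59 (−0.72 to −0.46) and in rEC-like cells −0.54 (−0.92 to −0.17), both short of 2-fold, and 0.907% of genes were past it downwards in mpEC-like cells. The first of these was −0.03 under a stricter gate, which left the Dach1OE level at 590.4 CPM, and −0.87 with classes by likelihood. The second was −1.20 (−1.44 to −0.96), and past 2-fold as were 1.93% of genes, in ECs with Emcn and Cav1 UMIs and no Flt4 UMI. Over all ECs Ednrb was at 102.4 CPM in Control and 87.5 CPM in Dach1OE (log2 ratio −0.23, −0.31 to −0.15). This small fall turned to a rise of 0.17 (0.03 to 0.31) in Y-linked cells and was −0.46 (−0.60 to −0.32) in Xist cells. With the Control subtype mix in both libraries it was −0.71.

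**Figure D3:**
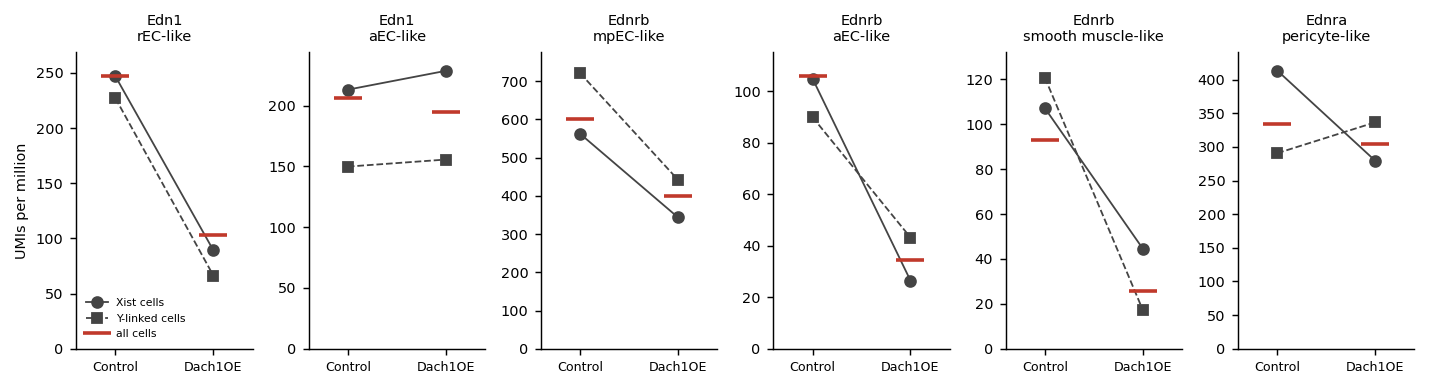
Levels (CPM, axes from 0) of Edn1, Ednrb and Ednra in Control and Dach1OE for cells with Xist UMIs (circles), cells with Y-linked UMIs (squares) and all cells of the class (red bars). Edn1 in rEC-like and Ednrb in mpEC-like, aEC-like and smooth muscle-like cells are lower in Dach1OE in both kinds of cell, whereas Ednra in pericyte-like cells goes from 413.4 to 279.4 CPM in Xist cells and from 290.6 to 336.5 CPM in Y-linked cells.

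Ednrb also fell in smooth muscle-like cells, from 93.2 CPM (79.8 to 108.3, 172 UMIs) to 25.7 CPM (20.02 to 32.4, 70 UMIs). The log2 ratio was −1.86 (−2.28 to −1.45), and 1.11% of genes were past 2-fold lower in these cells. The share of cells with a UMI was 9.61% (7.60 to 11.9) of 749 in Control and 2.66% (1.86 to 3.68) of 1314 in Dach1OE, at median depths of 2247 and 1818 UMIs. Thinned to 1000 UMIs per cell the shares were 6.37% and 1.56%, against 0.207% and 0.264% in haematopoietic cells. In Xist cells the level went from 107.2 to 44.6 CPM and in Y-linked cells from 120.8 to 17.2 CPM (log2 ratios −1.27 and −2.81). Where cells needed under 10% mitochondrial UMIs the log2 ratio was −1.83 with an interval of −7.54 to 1.81, too few cells being left to place it away from 0.

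Des, a muscle intermediate filament gene, was also lower in these cells, at 112.2 CPM in Control and 50.3 CPM in Dach1OE, with a Des UMI in 21.9% and 8.83% of them. Ednrb was higher in the cells with a Des UMI, at 178.4 against 65.4 CPM in Control and 58.7 against 21.2 CPM in Dach1OE. In the cells without a Des UMI alone the log2 ratio of Ednrb was −1.62. The summed level of the 8 EC gate markers in smooth muscle-like cells, 492.2 CPM in Control and 544.1 CPM in Dach1OE, was about 7.04% and 7.14% of that in ECs, with none of the 8 at 0. In pericyte-like cells as a whole Ednrb was at 59.9 CPM (36 UMIs) in Control and 68.0 CPM (96 UMIs) in Dach1OE, with an interval of the log2 ratio that spanned 0. Their cells with Xist UMIs were at 73.2 CPM (17 UMIs) and 110.3 CPM (47 UMIs). The 42 Control cells of the class with Y-linked UMIs held 3 Ednrb UMIs and the 103 such cells of Dach1OE held 0, which allows up to 8.70 CPM there. The Xist level of Dach1OE was thus well above the most that its Y-linked cells allow, a gap that the whole class does not show. The log2 ratio of the Y-linked cells could not be computed, but its upper limit was −0.16. Sex cannot be told apart from the individual mouse here, and the cause of the gap was not tested.

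**Figure D4:**
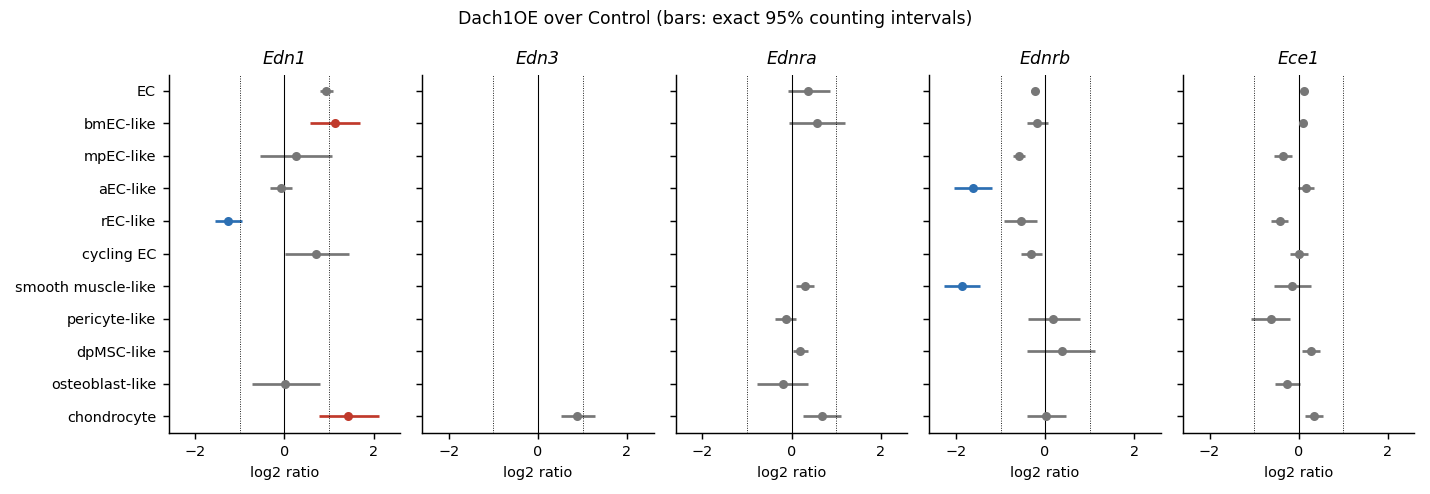
Log2 ratio of Dach1OE over Control (horizontal axis) for each gene in 11 cell classes, with exact 95% counting intervals, where red and blue mark ratios past 2-fold (dotted lines) and pairs with fewer than 50 UMIs are left out. Of the pairs drawn, Edn1 is past 2-fold higher in bmEC-like cells and chondrocytes and lower in rEC-like cells, and Ednrb is past 2-fold lower in aEC-like and smooth muscle-like cells.

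Within the ECs of Dach1OE, Ednrb was lower where a Dach1 UMI was seen. It was at 65.3 CPM in the 3179 ECs with a Dach1 UMI and at 106.0 CPM in the 5005 without, a log2 ratio of −0.70 (−0.82 to −0.58). The difference was found in mpEC-like cells (256.1 against 505.8 CPM, −0.98, −1.20 to −0.77) and in bmEC-like cells (11.5 against 22.2 CPM, −0.95, −1.39 to −0.52). In rEC-like cells it ran the other way, with 110.7 CPM in cells with a Dach1 UMI and 67.2 CPM in cells without (0.72, 0.20 to 1.25). Ece1 did not follow this split over ECs, at 238.6 and 233.7 CPM. The ECs with a Dach1 UMI had a median of 3465 UMIs and the others 2545, and the part of this depth gap was not tested.

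**Figure D5:**
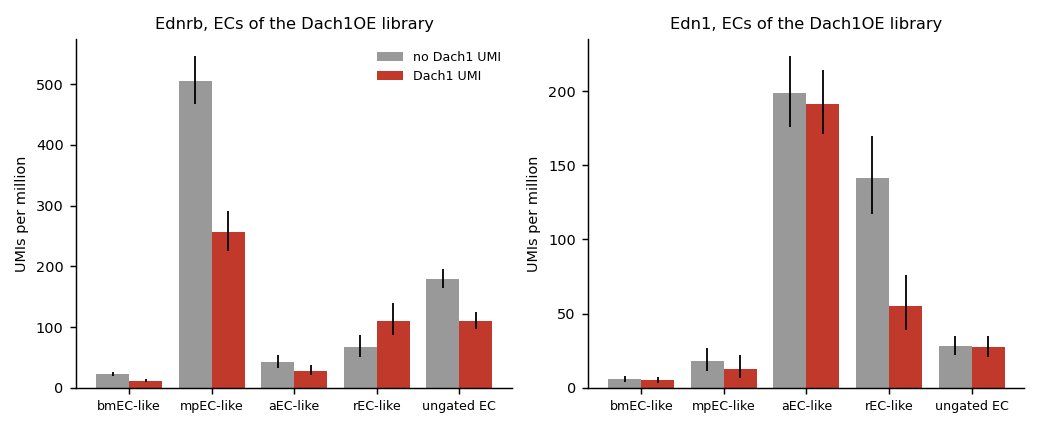
Ednrb (left) and Edn1 (right) in CPM (axis from 0) in Dach1OE ECs with a Dach1 UMI (red) and without (grey) for 5 EC subtypes, with exact Poisson 95% intervals. Ednrb is lower in Dach1-positive mpEC-like cells (256.1 against 505.8 CPM) and Edn1 in Dach1-positive rEC-like cells (55.3 against 141.7 CPM).

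Around these 5 genes, the lists of the pathway were counted in ECs, mural and osteoblast-like cells. In ECs, Itpr3, an inositol trisphosphate receptor of the endoplasmic reticulum, rose from 8.41 to 31.0 CPM (log2 ratio 1.88) and was the only one of 20 counted G proteins and effectors past 2-fold, while Gnai2, Rhoa, Rock1 and Rock2 lay between −0.12 and 0.38. Of 11 genes of receptor desensitization, the regulators of G protein signalling Rgs5 (37.6 to 104.0 CPM, 1.47) and Rgs16 (5.73 to 23.1 CPM, 2.01) rose and Rgs4 (327.1 to 158.1 CPM, −1.05) fell. Rgs4 is also a marker of bmECs, and the part of the smaller bmEC-like share of Dach1OE in its fall was not tested. Rgs5 is also a gate marker of pericytes, and the part of pericyte RNA in its level in ECs and bmEC-like cells was not tested. Of 12 known regulators of Edn1 transcription none passed 2-fold, with Klf2, the shear-induced factor that represses Edn1, at 240.7 and 270.6 CPM. None of 12 counted vasodilator genes did either, the nitric oxide synthase gene Nos3 being at 78.4 and 137.1 CPM (0.81). Furin, which makes the first cut, was at 57.3 and 65.6 CPM, and none of the 3 counted genes of other ligands and enzymes passed. None of the 3 counted osteoblast genes linked to endothelin passed in ECs. These counts stand beside the 5.4% of all genes past 2-fold in ECs. Within bmEC-like cells, where 3.38% of genes were past 2-fold, Rgs5, Rgs16 and Fos (224.6 to 501.7 CPM, 1.16), a subunit of the AP-1 factor that drives Edn1, passed upwards. Within aEC-like cells, where 6.95% were, Plcb1 (154.9 to 43.1 CPM, −1.85), a phospholipase downstream of the receptors, Rgs2 (338.2 to 146.2 CPM, −1.21) and Tagln (62.7 to 27.5 CPM, −1.19) passed downwards. These genes of the 2 subtypes were named after their values were seen.

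In mural cells, where 1.49% of genes were past 2-fold, Des fell (93.4 to 44.4 CPM, −1.07) among 8 contractile genes, with Acta2, Tagln, Mylk and Myl9 between −0.24 and −0.01. Adm, the gene of the vasodilator adrenomedullin, rose from 6.32 to 14.9 CPM (1.24) as the only one of 11 counted vasodilator genes. In ECs the contractile list held 7 counted genes, of which Des, at 0.704 and 1.41 CPM, was past 2-fold higher. Both levels were below the 2.35 and 1.97 CPM of all cells outside the smooth muscle-like class, and the part of free RNA in them was not tested. In osteoblast-like cells, against 1.1% of genes, only Rgs5 of all the lists passed, from 21.3 to 87.9 CPM (2.04). Rgs5 marks pericytes, and the 6 pericyte markers, Rgs5 among them, summed to 93.8 and 150.4 CPM in osteoblast-like cells. Since that sum holds Rgs5 itself, it cannot serve as a separate measure of pericyte RNA. The part of such RNA in the rise was not tested. The Wnt antagonist gene Dkk1, known to be lowered by endothelin 1 in osteoblasts, was at 56.2 and 48.9 CPM (−0.20). No gene of the lists other than those named was past 2-fold in ECs, mural or osteoblast-like cells.

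The genes whose levels were most like those of each member over the 44 points of class and library with at least 50 cells are given as a description, since the points share their 2 libraries and their gates. For Edn1 these were Fam107a (Pearson's r 0.953), Ace, the angiotensin converting enzyme gene (0.943), Mecom (0.938), the gate marker Stmn2 (0.930) and Dhh (0.926). For Ednra they were Heyl (0.984) and Pdgfrb (0.982), genes of mural cells, with Foxs1, the gate marker Notch3 and Pla2r1. Ednrb was most like Nes (0.912), Tcim, Mcam, Prdm1 and Caskin2, and Ece1 most like Acvrl1 (0.973), the endothelial BMP receptor gene, with Sorbs3, Pxdn, Slfn5 and Cyp2d22. Edn3, sparse as it was, came closest to Sfrp5 (0.796), Hhip, Gjb6, Mpzl2 and Paqr5. Between the members the coefficients were 0.589 for Edn1 with Ednrb, 0.756 for Edn1 with Ece1 and −0.250 for Edn1 with Ednra.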

How the data were processed

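The deposited tables list, per the file headers, molecule counts per cell and gene from the BD Rhapsody WTA Analysis Pipeline (version 1.11) on GRCm38 with GENCODE vM19. The authors corrected the counts for UMI errors (RSEC), and intronic reads count. Whether strand was used is not stated, so reads of Edn1, Ednra and Ece1 cannot be told apart from those of Gm47118, 4933431K23Rik and Gm13012, which overlap them. Positions are from GENCODE vM21, of the same build. No cell annotation was used here.

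Cells with 500 to 6000 genes and under 25% mitochondrial UMIs were kept. A cell joined the broad class with the highest share of its markers seen, given at least 3 markers and a lead of 0.2 over the next class (0.1 within ECs, mural cells or BMSCs). That lead leaves out cells with near-equal shares of different classes, but a mixed cell with a clear lead stays in. No doublet caller was run. Cycling cells had 3 of 8 cycle genes. Xist cells had no Y-linked UMI and the reverse, and 10586 Control and 12527 Dach1OE cells fell in neither group.

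UMIs were summed per class and library and divided by the class total (CPM), with exact Poisson 95% intervals. Ratios have exact conditional binomial intervals, and shares exact binomial ones. All cover counting error only, since each group is 1 library. "Past 2-fold" means over 2-fold with the interval away from 0, and the percentages of all genes are over those with at least 50 UMIs in both sides together. Thinned values are expectations over all draws, a choice made after single draws were seen to differ. The intervals were tried on class sums simulated by Poisson draws, which is the counting error they assume. Spread between cells or mice was therefore not part of that trial. Python 3.11.15, numpy 2.4.6, scipy 1.17.1 and pandas 2.3.3 were used.

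The members, classes and lists were chosen with earlier results of these data known. Named were the 5 members everywhere, list genes past 2-fold in ECs, mural or osteoblast-like cells with up to 4 others of a list with the most UMIs, and the 5 genes of at least 500 UMIs most like each member by Pearson's r of log2(CPM + 10). Of the list names, 4 (Adrbk1, Ccn4, Gucy1a3 and Gucy1b3) are other names of genes listed under a current or older symbol and were not counted. The UMI limits for chondrocyte subclasses (Ucma 3, Ihh 2, Col10a1 20), the Pax7 and Myf5 cells and the ECs with Emcn and Cav1 UMIs and no Flt4 UMI were set after values were seen. One small class and its values are not reported here.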

Additional observations from a re-analysis of the deposited data

Results flagged for a closer look

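Edn1 moved in opposite directions between the libraries in different cell classes, which is what marked it for a closer look. Its log2 ratio of Dach1OE over Control was −1.26 in rEC-like cells, 1.13 in bmEC-like cells and 1.42 in chondrocytes. The difference between these classes was not tested, since each group is 1 library. The rEC-like cells had 227 and 153 Edn1 UMIs, whereas the bmEC-like and chondrocyte values rest on 49 and 68 and on 25 and 90 UMIs. As given above, the rEC-like fall and the chondrocyte rise were short of 2-fold under some other choices of cells. The chondrocyte level of Control was also not above the haematopoietic level.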

How the results depend on the processing

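Of 338 alternatives for 54 results, 255 moved the value by less than its counting interval, 83 moved it further and 0 reversed a called value, and 232 of 240 alternative log2 ratios kept their sign. Ratios that could not be computed for want of UMIs were left out of these counts. Only the value of an alternative was compared, not the width of its own interval. No paired analysis was possible because each group is 1 library, and for the same reason no replicate could be left out. For each value below the cause was not tested. The gate by Emcn, Cav1 and Flt4, the C1qtnf9 or Fmo2 UMI, the Control subtype mix and the cells without a Des UMI were chosen after seeing the data.

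For the log2 ratio of Dach1OE over Control, under 10% mitochondrial UMIs gave 1.23 for Edn1 in ECs, −0.02 for Ednra in mural cells and −0.13 for Ednrb in ECs. A minimum of 1000 genes gave −1.43 for Ednrb in smooth muscle-like cells. The stricter gate gave 0.44 for Edn1 in chondrocytes and −0.03 for Ednrb in mpEC-like cells. Classes by likelihood gave −0.88 for Edn1 and −0.05 for Ece1 in rEC-like cells, −0.87 for Ednrb in mpEC-like and −1.40 in smooth muscle-like cells. Xist cells gave 0.02 for Ednra in mural cells and, for Ednrb, −0.46 in ECs and −1.27 in smooth muscle-like cells. Y-linked cells gave 1.33 in ECs and −1.78 in rEC-like cells for Edn1, 0.34 for Ednra in mural cells and, for Ednrb, 0.17 in ECs, −1.06 in aEC-like and −2.81 in smooth muscle-like cells. Equal subtype weights in ECs gave −0.51 for Edn1, −0.61 for Ednrb and −0.10 for Ece1, and the Control mix gave −0.18, −0.71 and 0.01. Thinning gave −0.42 for Ednrb in ECs. ECs with Emcn and Cav1 and no Flt4 UMIs gave −0.52 for Edn1 and −1.20 for Ednrb in place of rEC-like cells, and a C1qtnf9 or Fmo2 UMI gave −0.64 for Edn1.

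For the log2 ratio over the other ECs, under 10% mitochondrial UMIs gave 4.44 for Edn1 in aEC-like and −4.14 for Ednrb in bmEC-like cells of Control. The stricter gate gave, in Control, 2.72 and −4.30 for Ednrb in mpEC-like and bmEC-like cells and 1.16 for Ece1 in rEC-like cells, and, in Dach1OE, 2.86 for Edn1 in aEC-like cells and 3.02 and −3.64 for Ednrb. Likelihood gave 4.14 and −4.51 for Ednrb in Control and, in Dach1OE, 3.43 and −3.83 for Ednrb and 1.82 for Edn1 and 0.86 for Ece1 in rEC-like cells. Xist cells gave 3.81 for Edn1 in aEC-like cells of Dach1OE. Y-linked cells gave, for Edn1, 4.83 and 1.10 in rEC-like cells of Control and Dach1OE and −3.25 in bmEC-like cells of Dach1OE, and, for Ednrb, 3.57 in mpEC-like cells of Control and −4.36 and −3.39 in bmEC-like cells. Thinning gave 2.93 for Ednrb in mpEC-like cells of Control.

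For levels in CPM, under 10% mitochondrial UMIs gave 201.4 for Edn1 in rEC-like cells of Control, and 1000 genes gave 230.0 for Ece1 in ECs of Dach1OE. The stricter gate gave 590.4 for Ednrb in mpEC-like cells and 228.9 for Ece1 in ECs of Dach1OE. Likelihood gave 124.1 for Edn1 in rEC-like cells of Dach1OE and 528.1 and 288.6 for Ednrb in mpEC-like cells of Control and Dach1OE. Xist cells gave 228.7 for Edn1 in aEC-like cells of Dach1OE, 561.9 and 343.2 for Ednrb in mpEC-like cells, 413.4 for Ednra in pericyte-like cells of Control and 7.83 for Edn3 in Ucma chondrocytes of Dach1OE. Y-linked cells gave 66.2 for Edn1 in rEC-like cells of Dach1OE, 149.9 and 155.7 in aEC-like cells, 720.3 and 441.4 for Ednrb in mpEC-like cells, 336.5 for Ednra in pericyte-like cells of Dach1OE and 207.5 and 222.9 for Ece1 in ECs. Thinned shares of cells with a UMI in Control and Dach1OE were 15.97% and 7.56% for Edn1 in rEC-like, 15.7% and 16.5% in aEC-like, 34.2% and 25.2% for Ednrb in mpEC-like and 28.0% and 26.8% for Ednra in pericyte-like cells. With a minimum of 20 UMIs in place of 50, the genes past 2-fold numbered 660 against 418 in bmEC-like, 764 against 451 in rEC-like, 352 against 150 in smooth muscle-like cells and 437 against 199 in chondrocytes.

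Depth limits Edn3 everywhere, Edn1 outside aEC-like and rEC-like cells and Ednrb in pericyte-like cells, where under 100 UMIs stand behind a level in most classes.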
